A study of Mus musculus with 6 samples.

Results

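The HoxA genes from Hoxa2 to Hoxa10 had few or no reads in wild-type (WT) neural stem cells and clearly measurable transcripts at most of them in Setd5+/- cells. The genes described are Hoxa2, Hoxa3, Hoxa4, Hoxa5, Hoxa6, Hoxa7, Hoxa9 and Hoxa10, which are 8 of the 52438 genes with values. They were chosen by name because their reads in these same samples were far more numerous in the Setd5+/- library, so the WT and Setd5+/- levels given here are a description of the values that chose them and carry no test. All 8 lie on chromosome 6 on the minus strand, in the GENCODE M21 annotation of GRCm38 (also called mm10), in a stretch of 98.5 kb from the first base of Hoxa2 to the last of Hoxa13. Together the 8 genes had 10 reads in WT and 2694 reads in Setd5+/-.

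Hox genes encode homeodomain transcription factors that give cells their position along the head-to-tail axis. Their order on the chromosome follows their order of use: genes at the Hoxa2 end are switched on early and reach into the hindbrain, while genes at the Hoxa13 end are used late, in the posterior trunk, limb buds and genital tract. Forebrain tissue, including the embryonic cortex, normally keeps Hox clusters off, and Polycomb complexes hold such silent clusters while Trithorax and MLL complexes keep active ones on. SETD5 is a chromatin-associated protein with a SET domain, and loss-of-function mutations of the human gene cause a neurodevelopmental disorder.

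The cells were primary cortical NSCs, derived from the telencephalic cortex of mouse embryos. They were grown as adherent cultures on Matrigel with bFGF and EGF at 21% oxygen, and these conditions were shared by both genotypes. WT cells are labelled Wild Type, and the Setd5+/- cells had been made heterozygous for Setd5 with Crispr-Cas9. The labels give 3 samples per genotype and total RNA as the material, sequenced as paired ends from Tru Seq RNA v2 libraries. The columns of the mutant samples carry a single clone name, A3, which is not among the clones that the study's text names.

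The 3 samples of a genotype were treated as parts of 1 library. Compared by chi-square on read pairs, 2 samples of the same genotype gave 0.958 to 0.981 per degree of freedom (6 such pairs of samples), where 1 is pure sampling noise, and samples of different genotypes gave 31.7 to 31.9 (9 pairs), and the column names show the same index and lane within a genotype. Each genotype is therefore n = 1, no p-value or SD across samples is given, and genotype, clone, culture, index and lane cannot be told apart. Total reads on genes were 9995980 to 10004948 per WT sample and 7143309 to 7146147 per Setd5+/- sample. The levels below are normalized counts, that is reads divided by the authors' size factor of the sample, and intervals are exact 95% intervals that cover counting error only. A library at 0 reads was set at a floor of 3 read pairs, which equals 1.66 normalized counts in WT and 2.38 in Setd5+/-.

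Setd5 itself was read in every sample. Its normalized counts were 2498, 2749 and 2780 in the parts of the WT library and 2151, 1990 and 2055 in those of the Setd5+/- library. The Setd5+/- level was 0.772 times the WT level (95% counting interval 0.736 to 0.810).

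Of the neural stem cell markers, Sox2 was at 3119 in WT and 2732 in Setd5+/-, Nes at 2378 and 1951 and Slc1a3 at 20980 and 21120, and all 12 listed markers had a mean above the minimum of 10 used below. Emx1, which marks the dorsal telencephalon, was at 0.552 in WT and 0 in Setd5+/-.

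The start of each HoxA gene is shown by the 250 bases before a RefSeq start site, in GRCm38.p6, for genes that stand for different levels in the Setd5+/- library. The windows shown hold no annotated exon, the sequences run 5′ to 3′ on the minus strand, and capitals mark CpG dinucleotides. The first is of a gene with few reads, the next of a gene with many, and the remaining windows are of a gene at the floor and of a gene with no read.

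Hoxa2, chr6:52164832-52165081: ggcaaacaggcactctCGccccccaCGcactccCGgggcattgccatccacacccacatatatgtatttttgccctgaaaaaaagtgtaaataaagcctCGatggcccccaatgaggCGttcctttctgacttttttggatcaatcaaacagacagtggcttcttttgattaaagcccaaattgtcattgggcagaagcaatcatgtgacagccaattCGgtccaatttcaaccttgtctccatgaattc
Hoxa5, chr6:52204588-52204837: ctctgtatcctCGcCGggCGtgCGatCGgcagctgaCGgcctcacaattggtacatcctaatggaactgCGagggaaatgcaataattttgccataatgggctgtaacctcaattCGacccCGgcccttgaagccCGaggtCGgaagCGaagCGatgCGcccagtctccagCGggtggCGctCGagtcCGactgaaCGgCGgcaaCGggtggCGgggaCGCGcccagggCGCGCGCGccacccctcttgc
Hoxa9, chr6:52227371-52227620: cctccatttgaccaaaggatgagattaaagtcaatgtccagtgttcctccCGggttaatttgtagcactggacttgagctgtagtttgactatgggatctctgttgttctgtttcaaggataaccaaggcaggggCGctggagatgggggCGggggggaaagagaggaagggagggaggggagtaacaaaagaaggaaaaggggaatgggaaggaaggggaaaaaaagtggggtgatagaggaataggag
Hoxa13, chr6:52260881-52261130: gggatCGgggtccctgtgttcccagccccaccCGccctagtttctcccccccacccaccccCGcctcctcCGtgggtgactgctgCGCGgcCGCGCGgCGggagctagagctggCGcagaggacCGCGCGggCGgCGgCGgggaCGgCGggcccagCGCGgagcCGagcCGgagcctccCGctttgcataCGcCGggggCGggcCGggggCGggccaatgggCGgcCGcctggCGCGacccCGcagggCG

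The Hoxa2 window held 6 CpG, the same as the median of all 32851 promoter windows of this length. The Hoxa5 window held 28 CpG, more than 92.4% of all windows, and the Hoxa13 window 35, more than 97.0%. The Hoxa9 window held 3. Among the windows not shown, CpG numbered 18 at Hoxa3, 24 at Hoxa6, 7 at Hoxa7 and 7 and 20 at the 2 start sites of Hoxa10, and a RefSeq entry for Hoxa4 was not used here. The CpG number did not follow the level in every gene: Hoxa7, the gene with most reads, had 7, and Hoxa13, with none, had 35. The windows of Hoxa3, Hoxa6 and Hoxa7 overlap an annotated exon, and which start sites were in use was not tested.

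Motifs were searched on both strands of the 8 windows of 7 member genes. A match to TGATNNAT, the composite site of Hox and Pbx proteins, was found in the Hoxa2 window alone, against 7.68% of all windows. CCAAT boxes (CCAAT) were in 4 of the 8 windows and in 33.8% of all, with 4 matches in the Hoxa2 window. GC boxes (GGGCGG, which contain a CpG) were in 3 of 8 and in 32.7% of all, and a TATA box (TATAAA) in 1 of 8 and in 12.4% of all. The nuclear receptor half-site AGGTCA was in 0 of 8 and in 14.0% of all, and the homeodomain core TAATTA in 0 of 8 and in 4.84% of all. These counts describe letters in the windows and are no measure of binding.

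Values of the 8 genes were read in cluster order, starting from the Hoxa2 end. Hoxa2 (ENSMUSG00000014704, chr6:52162417-52164831) patterns the anterior hindbrain and the pharyngeal arches. Its normalized counts were 1.66, 1.66 and 3.31 in WT and 33.4, 35.7 and 27.4 in Setd5+/-. Hoxa2 was the member with the most WT reads, 8 against 81 in Setd5+/-. The level was 14.6-fold higher in Setd5+/- (95% counting interval 5.27 to 56.0).

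Hoxa3 (ENSMUSG00000079560, chr6:52169062-52213336) acts in the caudal hindbrain and in the pharyngeal organs, thymus and parathyroid among them. It had no read in any WT sample, and its normalized counts in Setd5+/- were 249, 246.5 and 243. Its Setd5+/- level of 246 was at least 149-fold higher than the WT floor. The annotated span of Hoxa3 reaches past Hoxa4, Hoxa5 and Hoxa6, because some of its annotated transcripts begin close to Hoxa7.

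Hoxa4 (ENSMUSG00000000942, chr6:52189671-52191753) is a gene of the caudal hindbrain and neck region. Its normalized counts were 0, 0 and 1.66 in WT and 62.0, 54.8 and 51.2 in Setd5+/-. The WT value rests on 2 reads, that is 1 read pair. The ratio of the levels was 101 (95% counting interval 17.6 to 4061), and the width of this interval comes from that read pair.

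Hoxa5 (ENSMUSG00000038253, chr6:52201754-52204587) patterns the cervical and upper thoracic region and is needed for the lung and airway. It had no WT read and normalized counts of 187, 192 and 202.5 in Setd5+/-, a level of 194, at least 117-fold higher than the WT floor. Hoxa6 (ENSMUSG00000043219, chr6:52206288-52208722), its neighbour in the thoracic part of the series, had no WT read either. In Setd5+/- its normalized counts were 41.7, 20.2 and 32.2, a level of 31.4, at least 18.9-fold higher. Of these adjacent genes, Hoxa5 had 488 reads in Setd5+/- and Hoxa6 had 79.

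Hoxa7 (ENSMUSG00000038236, chr6:52214491-52221854), a gene of thoracic identity, had the most reads of the 8. Its normalized counts were 0 in the 3 WT samples and 527, 470 and 469 in Setd5+/-. The level of 489 was at least 295-fold higher than the WT floor.

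Hoxa9 (ENSMUSG00000038227, chr6:52223100-52231089) and Hoxa10 (ENSMUSG00000000938, chr6:52231197-52240854) belong to the posterior, Abdominal-B type genes, used in the lumbar region and the limb, and in the genital tract for Hoxa10. Hoxa9 was at 0 in WT and at 2.38, 4.76 and 0 in Setd5+/-. Its 6 reads are 3 read pairs, so both libraries were at or under the floor and no fold is given. Hoxa10 was at 0 in WT and at 29.8, 16.7 and 10.7 in Setd5+/-, a level of 19.1, at least 11.5-fold higher than the WT floor. Among the 3 Setd5+/- parts, Hoxa10 had the widest spread of the 8 genes, with a chi-square of read pairs per degree of freedom of 2.09.

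**Figure D1:**
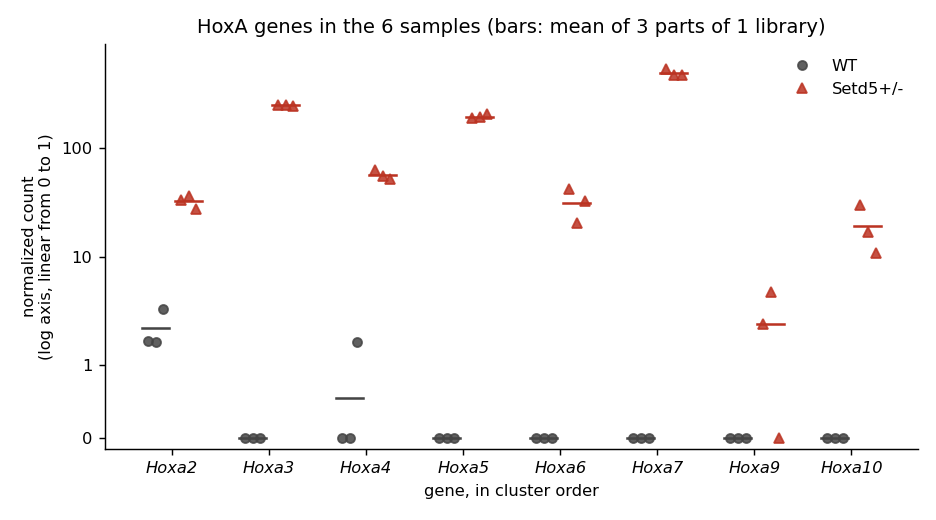
Normalized counts of the 8 HoxA genes in each sample, on a logarithmic axis that is linear from 0 to 1; circles are WT and triangles Setd5+/- samples, and bars are the mean of the 3 parts of a library. In WT 6 of the 8 genes sit at 0 in the 3 samples, while in Setd5+/- the 3 samples of Hoxa7 lie between 469 and 527.

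Counted together, 6 of the 8 genes had no read in WT and 8 of 8 had a read in Setd5+/-. In 7 of 8, Hoxa9 being the exception, every Setd5+/- value was above every WT value, which was also so in 22.6% of the 26797 genes with a read in either library (6044 genes) and in 32.4% of those with a mean of at least 10. With a mean over both libraries of at least 10 normalized counts required, 6 of the 8 passed; Hoxa9 (mean 1.19) and Hoxa10 (mean 9.53) did not. All 6 that passed were at least 2-fold higher in Setd5+/-, where 10.6% of the 16266 genes that passed were (1719 genes). Of these 6, 5 also had at most 3 read pairs in WT, a pattern found in 0.43% of the 16266 genes (70 genes). Since this contrast chose the genes, the counts describe them only. The reverse pattern, at most 3 read pairs in Setd5+/- and at least 2-fold higher in WT, was found in 71 genes.

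Among the 32709 genes with at most 3 read pairs in WT, ordered by Setd5+/- level, Hoxa7 was at place 2, Hoxa3 at 3, Hoxa5 at 6, Hoxa4 at 20, Hoxa6 at 34, Hoxa10 at 71 and Hoxa9 at 1026. The summed level of the 8 genes was 2.76 in WT and 1070 in Setd5+/-, a ratio of 387.5 (95% counting interval 166 to 1195). In bulk RNA, more cells that transcribe the cluster and more RNA per cell cannot be told apart.

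**Figure D2:**
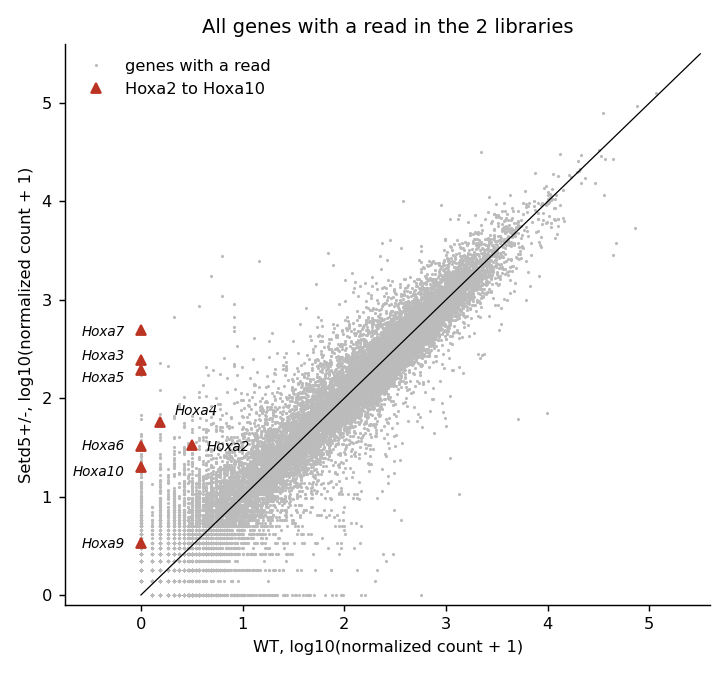
Level of each gene with a read in either library, WT on the horizontal and Setd5+/- on the vertical axis, both as log10(normalized count + 1); the line marks equal levels and red triangles are the 8 HoxA genes. Of the 8, 6 sit on the left edge at a WT level of 0, with Hoxa7 highest at a Setd5+/- level of 489.

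The reads were spread unevenly over the 8 genes in Setd5+/-. Hoxa7 took 45.7% of the member read pairs (95% Clopper-Pearson interval 43.0 to 48.4), Hoxa3 23.0% (20.8 to 25.4) and Hoxa5 18.1% (16.1 to 20.3). Hoxa4 took 5.23%, Hoxa2 3.01%, Hoxa6 2.93%, Hoxa10 1.78% and Hoxa9 0.223%. In WT the 10 member reads were 8 of Hoxa2 and 2 of Hoxa4.

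Levels of different genes were compared per kilobase of coding sequence, since longer transcripts give more reads. On this scale Hoxa7 in Setd5+/- stood at 712 normalized counts per coding kb (95% counting interval 656 to 770), Hoxa5 at 239 (210 to 271) and Hoxa3 at 185 (165 to 207). Their intervals did not overlap. Hoxa4 followed at 65.5 (51.1 to 82.7), Hoxa6 at 45.1 (32.1 to 61.5), Hoxa2 at 28.8 (20.6 to 39.2) and Hoxa10 at 15.3 (9.79 to 22.7). Hoxa9 was last at 2.93 (0.604 to 8.57). Taken as ratios of neighbours in this order, Hoxa4 over Hoxa6 was 1.45 (95% counting interval 0.971 to 2.20) and Hoxa6 over Hoxa2 1.56 (0.983 to 2.49), and both intervals reach just below 1, so the order of these neighbours is not resolved by the counts. Hoxa2 over Hoxa10 was 1.89 (1.11 to 3.27), an interval above 1. The other neighbours, too, had intervals above 1, the narrowest difference being Hoxa5 over Hoxa3 at 1.29 (1.09 to 1.53).

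Along the chromosome the level per coding kb did not change in 1 direction. It was low at Hoxa2, higher at Hoxa3, lower at Hoxa4, higher again at Hoxa5, lower at Hoxa6 and highest at Hoxa7, then at the floor at Hoxa9. Hoxa10 was above Hoxa9, and Hoxa11 and Hoxa13 had no read. With the length of all annotated exons in place of the coding length, Hoxa7 (170.0 per kb) and Hoxa5 (103) stayed highest, in that order. Hoxa3 came next at 40.9 (counting interval 36.5 to 45.8). Hoxa6 at 35.9 (25.6 to 49.0) and Hoxa4 at 35.1 (27.4 to 44.3) changed places. Their intervals overlapped that of Hoxa3, so the order of Hoxa3, Hoxa6 and Hoxa4 was not resolved on this scale. The drop from Hoxa3 to Hoxa4 therefore depended on the choice of length. The rise to Hoxa3 from Hoxa2, at 18.1 (13.0 to 24.6) per exon kb, was seen with both lengths.

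**Figure D3:**
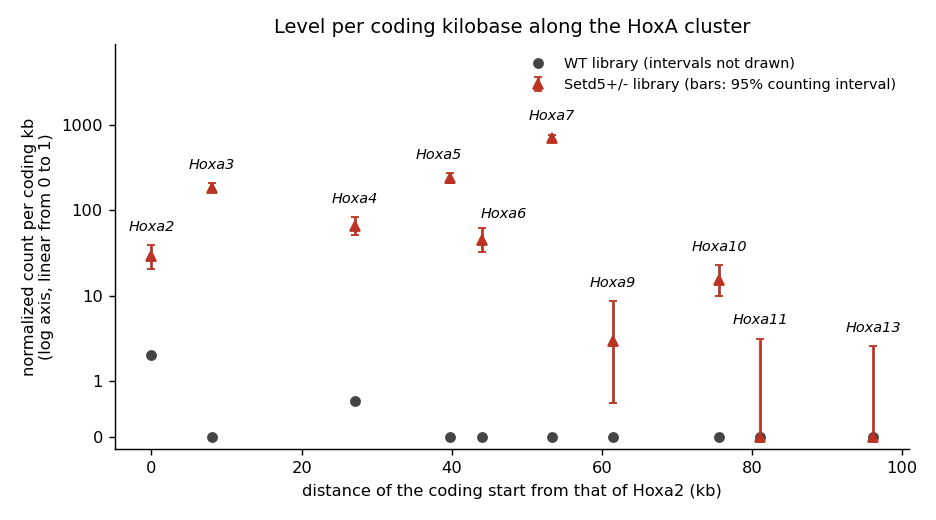
Normalized count per coding kilobase of the HoxA coding genes from Hoxa2 to Hoxa13 against the distance of their coding start from that of Hoxa2 in kb; triangles with 95% counting intervals are the Setd5+/- library and circles the WT library. Levels in Setd5+/- reach 712 at Hoxa7, drop to 2.93 at Hoxa9 and are 0 at Hoxa11 and Hoxa13.

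Transcripts of some non-coding genes were also present in WT. Hotairm1, an antisense RNA just before Hoxa2, was at 46.9 in WT and 192 in Setd5+/-, 4.09-fold higher (3.18 to 5.30). The interval of Hoxa2 (5.27 to 56.0) overlapped that of Hotairm1 at its upper end.

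Other annotated genes between the members, most of them non-coding, also had more reads in Setd5+/-. Hoxaas2, next to Hoxa2 and Hoxa3, was at 4.97 in WT and 75.85 in Setd5+/-, 15.3-fold higher (7.71 to 34.4), and Gm15050 at 1.93 and 32.6, 16.9-fold higher (5.76 to 72.9). Hoxaas3, which runs antisense from Hoxa3 to Hoxa7, had no WT read and a Setd5+/- level of 172, at least 104-fold higher than the WT floor. Further genes without a WT read were 5730596B20Rik, annotated as protein-coding, at 24.6 (at least 14.9-fold higher), and Gm29430, at 14.7 (at least 8.87-fold higher). Gm28308, also annotated as protein-coding and a read-through across Hoxa2 and Hoxa3, was at 1.38 and 16.3, 11.8-fold higher (3.22 to 76.3).

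Of the 25 genes annotated from Hoxa2 to Hoxa13, 5 had a read in WT and 14 in Setd5+/-, and 11 were at 0 in both. The last gene with a read was Hoxa10. Beyond it, as far as Evx1, 0 of 18 annotated genes had a read in either library, Hoxa11, Hoxa13, Hoxa11os and Hottip among them, where the spans of Hoxa10 and Hoxa11 are 1.25 kb apart. Most of these 18 are short non-coding entries, and of all 52438 genes with values 26797 had a read in either library. At this depth a count of 0 allows up to 3 read pairs. The Mir196b row, between Hoxa9 and Hoxa10, was at 0 in libraries of a kind that does not capture mature microRNAs.

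Some of these reads cannot be assigned to a single gene with certainty, because the sources used here do not give the program or the strand setting of the counting. Exon bases shared with another annotated gene made up 27.1% of Hoxa3, 20.4% of Hoxa7 (all with Hoxaas3, on the other strand), 16.0% of Hoxa4, 15.0% of Hoxa2 and 1.52% of Hoxa9. Hoxa5, Hoxa6 and Hoxa10 shared none, and they too had no read in WT.

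Outside the HoxA cluster, with Hotairm1 counted as part of it, the nearest well-measured genes on either side were present in both libraries. The closest annotated genes outside it had few or no reads. Skap2, an adaptor protein gene 149.9 kb from Hoxa2, was at 927 in WT and 1609 in Setd5+/-, a ratio of 1.74 (95% counting interval 1.63 to 1.85). Hibadh, an enzyme of valine breakdown 285 kb past Hoxa13, was at 537 and 299, a ratio of 0.557 (0.493 to 0.628). Of the 5 nearest genes with a mean of at least 10 on each side, the others on the Hoxa2 side had ratios of 1.08 (Snx10), 0.771 (Cbx3), 0.853 (Hnrnpa2b1) and 0.462 (C530044C16Rik, 0.227 to 0.880). On the Hoxa13 side they were 0.923 (Tax1bp1), 1.03 (Jazf1), 0.915 (Gm15573) and 1.196 (Creb5). The only gene of these 10 past 2-fold was C530044C16Rik, which was lower in Setd5+/-. Nfe2l3 was at 9.66 and 10.3, a ratio of 1.07 (0.479 to 2.32), and Halr1, a non-coding gene on the Hoxa2 side, had 4 and 8 reads. Evx1 and Evx1os had no read.

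Across chromosome 6 outside the cluster, the median log2 ratio of 822 genes with a mean of at least 10 was -0.002, and over all 16266 genes it was -0.018.

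The other Hox clusters showed no such reads. Among all 52438 genes with values, 26797 had a read in either library. Of the 28 genes of clusters B, C and D in the table, 23 were at 0 in both libraries and 0 had a read in Setd5+/-. The other 5 had reads in WT alone, 2 each for Hoxb9, Hoxd4, Hoxd8 and Hoxd10 and 1 for Hoxd9, which is at or under the floor in both libraries.

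The genes whose pattern was most like that of the HoxA members were taken as the 10 genes outside the cluster with the highest Setd5+/- level among those with at most 3 read pairs in WT, over the 2 libraries. These were Trib3, at 665 in Setd5+/- with 4 reads in WT, followed by Ndrg1 (228), Gm15851 (211), Gm28187 (120), Scara5 (103), Enpep (85.8), Apol7d (85.4), En2 (79.4), Gm27403 (68.3) and Foxd2os (65.9). Trib3 encodes a stress-induced pseudokinase and En2 a homeodomain factor of the midbrain and cerebellum. None of the 10 lies on chromosome 6. Of the 70 genes with at most 3 read pairs in WT and at least 2-fold higher in Setd5+/-, 9 were on chromosome 6 and 7 of these lay between Hoxa2 and Hoxa13: Hoxa3, Hoxa4, Hoxa5, Hoxa6, Hoxa7, Hoxaas3 and 5730596B20Rik.

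Genes that work with or upstream of Hox genes were followed in lists, beside the background of 10.6% at least 2-fold higher and 6.34% at least 2-fold lower among all 16266 genes. Cofactors of the TALE class, which bind DNA together with Hox proteins, were listed with Pbxip1, which encodes a Pbx-interacting protein outside that class. All were present in both libraries, and 2 of these 10 genes were at least 2-fold higher and 1 lower. Pbx3 was at 74.8 in WT and 296 in Setd5+/- (log2 ratio 1.99), and Pbx4 at 45.3 and 150.1 (1.73), while Pknox2 was at 265 and 104 (-1.35). Meis1 was at 465 and 569, and the median log2 ratio of the list was 0.26.

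Of the hindbrain regulators that act upstream of Hox genes, 0 of 5 were higher and 1 was lower. Egr2 (Krox20), which activates Hoxa2 in the hindbrain, was at 129 in WT and 4.37 in Setd5+/- (log2 ratio -4.89). Gdf11 had the highest log2 ratio of the list at 0.56. In the retinoic acid pathway, which induces genes at the Hoxa2 end, 2 of 7 genes were higher and 2 lower. The receptor gene Rxra was at 139 and 320 (the largest ratio among them) and Rarg at 52.2 and 115 (1.14), whereas Rarb was at 53.0 and 21.4 (-1.31) and Cyp26b1, which degrades retinoic acid, at 40.6 and 6.35 (-2.68).

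Few genes of the complexes that maintain Hox states passed 2-fold. In Polycomb repressive complex 2, 1 of 13 genes was at least 2-fold higher (Phf19, 103 and 278, log2 ratio 1.43) and 0 were lower. Of its catalytic genes, Ezh2 was at 895 and 961 and Ezh1 at 145 and 279 (log2 ratio 0.95). Suz12 was at 612 and 751 and Eed at 322 and 301, and Mtf2 was lowest at -0.59. In Polycomb repressive complex 1, 1 of 20 was higher (Pcgf5, 1.11) and 0 were lower, with Yaf2 lowest at -0.81 and the median at -0.19. Of 17 Trithorax and MLL genes, 1 was higher (Aff1, 1.05) and 0 were lower. Kmt2a, the MLL1 gene, was at 1075 and 1208, and Dot1l had the lowest ratio of this list at -0.54.

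Of the 7 hindbrain and spinal cord factors that passed the mean of 10, 4 were at least 2-fold higher and 1 lower. En1 had 0.553 in WT and 62.3 in Setd5+/- (log2 ratio 6.82), En2 1.38 and 79.4, Irx3 43.1 and 173 and Irx5 34.2 and 138, while Gbx2, a factor of the anterior hindbrain, was at 57.7 and 15.9 (-1.86). Olig3 and Nkx6-1 were at 0 in both. Of 11 forebrain factors, 4 were higher and 0 lower. Nr2f2 had the highest log2 ratio at 4.72 (2.21 and 58.4) and the median of the list was 0.40.

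**Figure D4:**
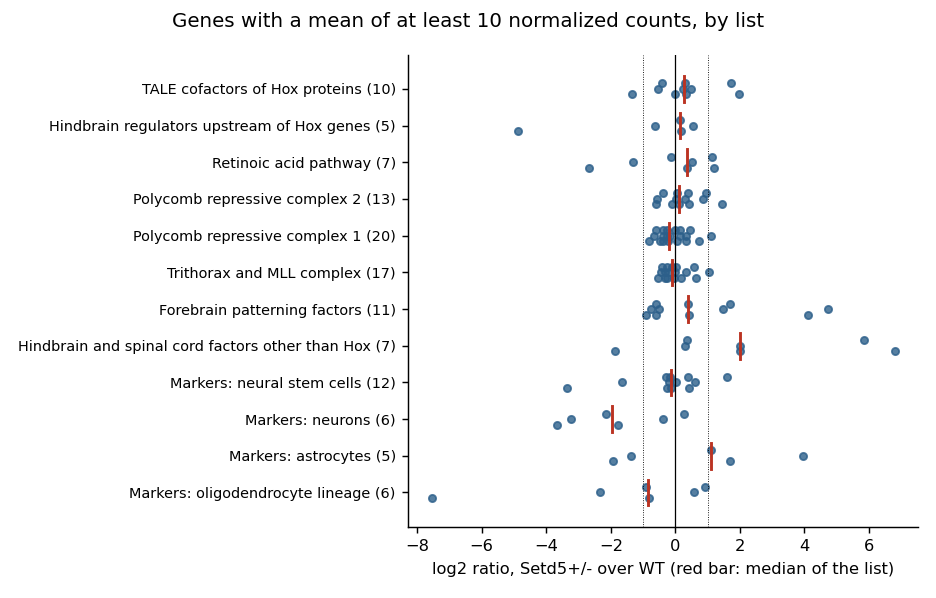
Log2 ratio of the Setd5+/- to the WT level for each gene with a mean level of 10 or more in 12 lists (number of genes in brackets); red bars are list medians and dotted lines mark 2-fold. Medians of the Polycomb and Trithorax lists are 0.10, -0.19 and -0.09, and their genes lie between -0.81 (Yaf2) and 1.435 (Phf19). Egr2 in the hindbrain regulators is at -4.89 and En1 at 6.82.

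Markers of cell types that the cultures could hold are given beside the HoxA values, and their part in the HoxA levels was not tested. Mesenchymal cells of the trunk carry Hox transcripts. Of the 10 mesenchymal markers, Lum, Twist1, Twist2 and Tbx18 were at 0 in both libraries, Col1a2 was at 1.38 in WT and 0 in Setd5+/-, and the summed level of 391.5 and 637 came mostly from Prrx1 (382 and 627). Of the 8 blood and microglia markers, Ptprc, Cx3cr1 and Spi1 were at 0, and the list summed to 439 and 185, mostly from Kit (340 and 122), which was lower, and Csf1r (98.0 and 53.6). Of the 6 endothelial markers, Cdh5 and Cldn5 were at 0.552 each in WT and 0 in Setd5+/-, and the list summed to 24.6 and 34.9, with Kdr at 6.35 and 17.9. Of the 6 pluripotency markers, Pou5f1, Zfp42 and Dppa3 were at 0, and the list summed to 26.5 and 15.5, with Esrrb at 24.8 and 5.56 and Nanog at 1.66 and 9.53 (a ratio of 5.75, 95% counting interval 1.55 to 31.8).

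Within the neural lineage, of 12 stem cell markers 1 was at least 2-fold higher (Notch1, 2576 and 7859) and 2 lower (Fabp7, 36020 and 11490, and Prom1, 24.6 and 2.38), and their sum was 78590 and 63630. Of 6 neuronal markers that passed the mean of 10, 4 were lower, with Syt1 lowest (64.9 and 5.16, log2 ratio -3.65) and Gap43 highest (0.25), and the list summed to 816 and 314.5. Of 5 astrocyte markers 3 were higher, led by Gfap (17.1 and 263, 3.94), and 2 lower, Slc1a2 lowest (-1.93), with a sum of 5485 and 2562. Of 6 oligodendrocyte lineage markers 2 were lower, Sox10 most (298 and 1.59, -7.55), with Cspg4 highest (0.91) and a sum of 40770 and 23260.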

How the data were processed

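Primary cortical NSCs of 2 genotypes were profiled by RNA-seq in 6 samples. According to the study's methods and the submitters' processing notes, the authors trimmed reads with Trimmomatic, aligned them to mm10 with Bowtie2 and used DESeq2; the counting program and its strand setting are not given in the sources used here. The authors deposited counts divided by size factors, a signal of normalized counts, in which many decimal points had been lost or moved, together with their own fold changes and p-values, which were not used.

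Points were restored where each value became a whole number of reads, with the deposited mean changing the choice in 1116 genes; in 4502 others several placings matched the mean and the one with most decimals was preferred (no member in either set); every one of 52438 deposited means matched. The 672 genes without values were left out. On simulated data 100.0% of 24000 values were restored exactly. These values were written by the same rule that the restoring step assumes, so they are no independent check of that rule. All 100 genes changed 4-fold and all 100 changed 8-fold were called, as were 60 of 16056 unchanged genes. The changed genes had a mean of at least 50, above the means of Hoxa2, Hoxa4 and Hoxa6, and the simulated noise was counting error alone. Total reads on genes were 30004634 in WT and 21435546 in Setd5+/-.

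Both ends of a pair appear to be counted (variance over mean of 1.95 in WT and 1.925 in Setd5+/- parts), so intervals use reads divided by 2. Ratios carry Clopper-Pearson intervals on read pairs, levels Poisson intervals. Called means at least 2-fold with a mean level of 10 or more. PCR copies cannot be told from molecules. Python 3.11.15, numpy 2.4.6, pandas 2.3.3, scipy 1.17.1 and matplotlib 3.10.9 were used, with GENCODE M21 for positions and lengths and RefSeq for promoter windows.

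The members, lists and rules were chosen with earlier results of these data known. Named genes were the 8 members, the other HoxA genes, genes of other Hox clusters with reads, the flanking genes, the 5 nearest genes on each side, Setd5, the largest rise and fall in each list, and the 10 genes of most similar pattern. Other genes were named after their values were seen, as textbook members of their list. Alternatives were the placing of decimal points, 2 other scalings, a pseudocount of 1, other folds and filters, exon length and leaving out each sample. Listed names without a row in the table, Itgam and some non-coding HoxA names among them, were not analysed here. Some genes that these rules pick are not reported here.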

Additional observations from a re-analysis of the deposited data

How the results depend on the processing

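No paired analysis was possible because the values come from no test and the 3 samples of a genotype are parts of 1 library. The log2 ratio of the summed members was 8.60, and with a sample left out in turn it lay between 8.34 and 8.75. It was 8.56 scaled to total reads, 8.59 scaled to the upper quartile and 8.15 as log2(mean + 1). The count of members at least 2-fold higher was 6, and 6 to 7 with a sample left out, Hoxa10 passing the mean of 10 without Setd5+/- replicate 2 or 3. It was 3 with a mean of at least 50, where Hoxa3, Hoxa5 and Hoxa7 remained, and 7 with no filter on low values. Over all genes the count of 1719 became 506 at 4-fold, 5673 with no filter and 1044 with a mean of at least 50, and 1729 with decimal points placed by the whole-read rule alone. It was 1734 to 1764 with a sample left out. Of 77 further log2 ratios of Setd5+/- over WT for single members, 21 moved beyond their counting interval (for members without a WT read, the Clopper-Pearson lower limit and the Poisson upper limit of the Setd5+/- reads). All 21 were of members without a WT read: 5 on the log2(mean + 1) scale, 15 without a WT replicate, where the floor stands on fewer reads, and Hoxa10 without Setd5+/- replicate 1 (3.05 against 3.52). The level of Hoxa7 per kilobase was 170.0 with the length of all exons, against 712 with the coding length, and the log2 ratio of the Hoxa6 to the Hoxa4 level per kilobase was 0.031 with exon length against -0.54. The shares of the 8 genes stayed within their intervals with a Setd5+/- sample left out. Depth limits Hoxa9, whose 6 reads are at the floor, and the WT side of Hoxa2 and Hoxa4.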

Other observations

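The ParaHox genes, relatives of the Hox genes outside the 4 clusters, were read in WT alone. Gsx1, a factor of the ventral telencephalon, had a level of 32.6 in WT and no read in Setd5+/-, and Gsx2 had 8.84 and no read, while Pdx1, Cdx1, Cdx2 and Cdx4 were at 0 in both libraries. With the Setd5+/- library set at its floor, the log2 ratio of Gsx1 was at most -3.77. The Cdx genes activate central Hox genes in the trunk of the embryo. Among genes of the retinoic acid pathway below a mean of 10, Crabp1, which binds retinoic acid in the cytoplasm, was at 0.552 in WT and 9.93 in Setd5+/-, and Aldh1a2, which makes retinoic acid, had no read in either library.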
